A study of Mus musculus with 24 samples.

Results

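The genes described here are Tgfbi and 9 genes of the TGF-β pathway (Tgfb1, Tgfbr1, Tgfbr2, Tgfbr3, Eng, Smad3, Smad6, Smad7 and Skil), 10 of the 55376 genes counted. They were selected on their gene symbols and on the measured values themselves, since Tgfbi was lower in TTPΔARE than in WT HSCs at both ages and Tgfbr3 was lower in TTPΔARE than in WT MPP3 cells. Bulk mRNA-seq was carried out on sorted bone marrow cells of male mice that overexpress tristetraprolin (TTP, encoded by Zfp36) and of their WT littermates. TTPΔARE mice were homozygous for a deletion of an AU-rich element of Zfp36, which stabilizes its mRNA in every cell that transcribes the gene, so that the change is not restricted to blood cells. Hematopoietic stem cells (HSCs, LSK CD34- Flk2- CD150+) of young adults were sequenced in 4 libraries of each genotype, named Y-WT and Y-TTPΔARE, and those of middle-aged mice in 5 libraries of WT (M-WT) and 3 of TTPΔARE (M-TTPΔARE). MPP3 cells, the myeloid-biased multipotent progenitors, were taken at the young age only, with 4 libraries per genotype. The paper used 3 of the 4 Y-TTPΔARE MPP3 libraries without saying which, and all 4 entered here. None of the mice had been treated, and the labels spell the genotype TTPdeltaARE in the sample titles and TPPdeltaARE in the genotype field. For the 8 MPP3 libraries the source name reads hematopoietic stem cells while the cell type field reads multipotent progenitor 3, and the latter was followed. The labels do not say that each library came from its own mouse, so p-values measure the spread between libraries, which may be partly technical. The 3 sets of libraries (middle-aged HSCs, young HSCs and MPP3 cells) carry separate runs of numbers in their titles, so a set effect cannot be told apart from the effect of age or of cell type.

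TGF-β1 is secreted in a latent complex and, once released, binds the type II receptor TGFBR2, which recruits and phosphorylates the type I receptor TGFBR1. Betaglycan (Tgfbr3) and endoglin (Eng) are co-receptors that present ligand. The active receptor phosphorylates SMAD2 and SMAD3, which enter the nucleus with SMAD4, while SMAD6 and SMAD7 inhibit receptor signalling and SnoN (Skil) is a co-repressor that holds SMAD complexes back. TGFBI is a matrix protein named for its induction by TGF-β and is abundant in monocytes and macrophages. In bone marrow TGF-β is known for holding HSCs in quiescence. TTP binds AU-rich stretches in the 3′ untranslated region (3′ UTR) of mRNAs and promotes their decay.

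Because TTP prefers the 7 bases TATTTAT, written as DNA, the longest annotated 3′ UTR of each member was searched for them on the sense strand. At least 1 match was found in 5 of the 10 members, against 30.3% of 11558 expressed genes. The short core ATTTA, which every longer match contains, was found in 9 of the 10 members and in 70.4% of expressed genes. Tgfbi, with a 3′ UTR of 601 bases, held neither sequence, and Tgfbr3, with 3069 bases, held ATTTA 5 times and TATTTAT not at all. Among expressed genes with a 3′ UTR of like length, 17.2% held TATTTAT in the case of Tgfbi and 52.8% in that of Tgfbr3. For the members with a match this share was 70.7% for Tgfbr2, 59.6% for Skil, 57.0% for Smad3, 34.6% for Smad7 and 12.3% for Smad6. The matches in Tgfbr2, Smad3, Smad6 and Skil are shown because they are the candidate letters for TTP among the members, with one from Zfp36 itself for comparison. Capitals mark the motif, 7 bases stand on each side of it, and all are read 5′ to 3′ on the strand of the gene from GENCODE M21 on GRCm38.
Tgfbr2, first match: atgtggcTATTTATtccagga
Tgfbr2, second match: acacactTATTTATaacgatc
Smad3, first match: gctttcgTATTTATgtaacaa
Smad3, second match: aagcatgTATTTATagtgttt
Smad6: acgtaatTATTTATatatggt
Skil: tggattaTATTTATtgaaaca
Zfp36: tttatagTATTTATatatatt
These windows lie in 3′ UTR exons at chr9:116086407-116086427 and chr9:116085448-116085468 (Tgfbr2, minus strand), chr9:63647338-63647358 and chr9:63646895-63646915 (Smad3, minus), chr9:63953324-63953344 (Smad6, minus), chr3:31122434-31122454 (Skil, plus) and chr7:28376930-28376950 (Zfp36, minus). Smad7 held 1 match that is not shown, and Zfp36 held 3 in all. A match describes the sequence only, and its absence says only that these letters are not in the annotated stretch.

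Libraries held between 24261371 and 39934554 counts. Levels are given as CPM, read counts scaled to a common library size after TMM normalization of all 24 libraries together, which corrects each library for depth and composition. Zfp36 had CPM of 69.2, 32.4, 34.6 and 53.5 in Y-WT HSCs against 105, 92.3, 85.3 and 96.1 in Y-TTPΔARE, and its groups did not overlap in M-HSCs or MPP3 cells either, as the genotype labels require. Markers of the sorted cells followed the labels. The summed CPM of 7 HSC markers lay between 956 and 1151 in Y-WT, 1163 and 1242 in Y-TTPΔARE, 1320 and 1498 in M-WT and 1648 and 1770 in M-TTPΔARE HSCs, higher in TTPΔARE and at middle age without overlap, and between 563 and 775 in MPP3 libraries. The summed CPM of 7 markers of MPP3 against HSCs lay between 290.3 and 528 in HSC and between 1908 and 4000 in MPP3 libraries. Between the genotypes, 0 of the 7 HSC markers were called in Y-HSCs and only Procr, higher in TTPΔARE, in M-HSCs. Mean Fgd5 and Ctnnal1 were lower in M-TTPΔARE (121 and 56.1 CPM) than in M-WT (133 and 66.4), and the other HSC markers higher. Markers of other cells varied between libraries. The 8 endothelial markers summed to between 1128 and 1651 CPM in Y-WT HSCs, 1062 and 1177 in Y-TTPΔARE HSCs, 1405 and 1546 in M-WT, 1281 and 1442 in M-TTPΔARE, 1497 and 1665 in Y-WT MPP3 and 806 and 1253 in Y-TTPΔARE MPP3, a sum made up mostly of Adgrl4 (between 1341 and 1539 CPM in Y-WT MPP3) and Tie1, both present in every library. The other markers were low in Y-WT MPP3, where Cdh5 was at 0 in 2 libraries. In HSCs, Plvap reached 204 and 210 CPM in Y-WT HSC replicates 1 and 4 but 49.2 and 41.7 in replicates 2 and 3, and Stab2 114 and 187 against 39.6 and 37.7. The 4 Y-TTPΔARE MPP3 libraries held between 664 and 1379 CPM of 9 markers of type 1 dendritic cells, a list added after the data were seen, against between 193 and 254 in Y-WT MPP3, and between 866 and 1608 CPM of 10 monocyte and macrophage markers against between 477 and 823. Between the MPP3 genotypes 8 of these 9 dendritic and 4 of these 10 monocyte markers were called higher, as were Hbb-bt and Hbb-bs of 6 erythroid and Lck of 5 T cell markers. Erythroid markers summed to between 56.8 and 122 CPM in Y-TTPΔARE MPP3 against 13.2 and 31.0 in Y-WT MPP3, and to between 43.6 and 91.2 in Y-TTPΔARE against 14.9 and 21.3 in Y-WT HSCs, and T cell markers to between 56.8 and 71.0 against 30.2 and 38.7 in MPP3. Genes for olfactory and vomeronasal receptors, taken as a measure of background, summed to between 17.8 and 1048 CPM and were highest in Y-WT HSC replicates 2, 3 and 4 (870, 1048 and 643 CPM). Y-TTPΔARE MPP3 replicate 4 had the lowest TMM factor (0.731) and the highest share of mitochondrial counts (1.40%) of the 24 libraries. In bulk libraries, fewer cells of a type and less RNA per cell cannot be told apart.

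Tgfbi (chr13:56609523-56639562, GRCm38) was lower in TTPΔARE HSCs of both ages and higher in TTPΔARE MPP3 cells. Its CPM were 41.7, 45.2, 28.2 and 37.9 in Y-WT HSCs and 18.9, 15.8, 17.2 and 19.2 in Y-TTPΔARE HSCs. Those groups did not overlap, and the log2 fold change was -1.15 (SE 0.14), a 2.22-fold lower level in TTPΔARE. In middle-aged HSCs the CPM were 52.9, 49.6, 97.6, 45.1 and 49.3 in M-WT and 13.6, 12.8 and 16.7 in M-TTPΔARE. Again the groups were apart, by a log2 fold change of -2.08 (SE 0.25), and M-WT replicate 3 stood well above the other M-WT libraries. Without that library the log2 fold change was -1.83. In MPP3 cells the CPM were 28.3, 29.0, 25.7 and 20.3 in Y-WT and 54.0, 36.6, 37.0 and 60.1 in Y-TTPΔARE, a log2 fold change of 0.81 (SE 0.16) in the opposite direction and again with no overlap. The difference between the cell types in the genotype effect was not tested. Among the Y-TTPΔARE MPP3 libraries, the 2 highest in Tgfbi, replicates 1 and 4, were also the 2 highest in the summed type 1 dendritic cell markers (1136 and 1379 CPM against 664 and 987 in replicates 2 and 3) and in the summed monocyte markers (1254 and 1608 CPM against 866 and 1161). The part of those cells in the higher level was not tested. In HSCs the monocyte markers summed to between 459 and 594 CPM in Y-WT and between 518 and 585 in Y-TTPΔARE, and to between 423 and 478 in M-WT and between 428 and 445 in M-TTPΔARE.

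These genotype contrasts chose the members, so their values are a description without a test. By the study's limits (adjusted p under 0.05, fold change over 1.2 and average logCPM over 1.5), 1 of the 10 members, Tgfbi, lay among the genes called lower in Y-TTPΔARE HSCs, where 0.0123% of 24381 tested genes were called lower and 0.0123% higher. In M-HSCs the count was again 1, Tgfbi, where 0.71% of genes were called lower and 0.7% higher. In MPP3 cells Tgfbr3 lay among those called lower (0.137% of genes) and Tgfbi among those called higher (1.58%). Nothing is read from these counts.

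From highest to lowest mean, Tgfbi CPM were 58.9 ± 21.8 (SD, n = 5) in M-WT HSCs, 46.9 ± 12.0 (n = 4) in Y-TTPΔARE MPP3, 38.2 ± 7.35 (n = 4) in Y-WT HSCs, 25.9 ± 3.93 (n = 4) in Y-WT MPP3, 17.8 ± 1.59 (n = 4) in Y-TTPΔARE HSCs and 14.4 ± 2.10 (n = 3) in M-TTPΔARE HSCs. Neighbours in this order overlapped except Y-WT MPP3 and Y-TTPΔARE HSCs. Tgfbi therefore stood lower in MPP3 cells than in HSCs among WT libraries (log2 fold change -0.61, SE 0.16) and higher in MPP3 cells among TTPΔARE libraries (1.29, SE 0.16). With age it was 0.62 higher on the log2 scale in WT HSCs (SE 0.22) and differed by -0.31 (SE 0.14) in TTPΔARE HSCs, and the groups overlapped in both. No p is given for these 4 contrasts, since their libraries are those on which Tgfbi was chosen.

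**Figure D1:**
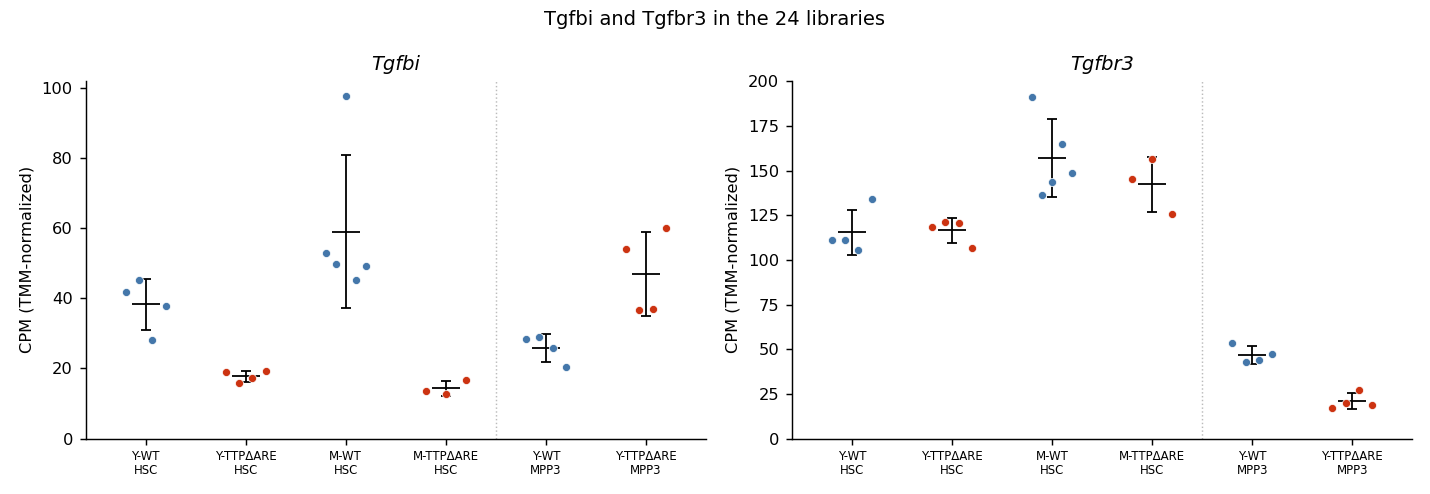
Level (CPM, TMM-normalized, linear axis from 0) of Tgfbi and Tgfbr3 in each of the 24 libraries, by group, with WT in blue and TTPΔARE in red; horizontal bars and whiskers are the mean ± SD of 3 to 5 libraries, and the dotted line parts HSCs from MPP3 cells. Tgfbi lies below 20 CPM in all 7 TTPΔARE HSC libraries and above 28 in all 9 WT HSC libraries, with the opposite order in MPP3 cells, while Tgfbr3 is lowest in Y-TTPΔARE MPP3.

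Tgfb1 (chr7:25687002-25705077), the ligand of the pathway, was higher in MPP3 cells than in HSCs and scarcely varied among HSC groups. Its CPM were 78.4, 79.7, 80.4 and 85.2 in Y-WT HSCs and 136, 150, 168 and 146 in Y-WT MPP3. All MPP3 values lay above all HSC values, with a log2 fold change of 0.85 (SE 0.09) and an adjusted p of 1.92e-04 by edgeR's quasi-likelihood test over all genes. Among TTPΔARE libraries the CPM were 89.1, 84.1, 91.8 and 77.9 in HSCs and 153, 132, 160 and 176 in MPP3. The difference was of like size (0.75, SE 0.10, adjusted p = 7.28e-04), and both calls held under every alternative setting run. Of all genes tested, 7.69% were called lower and 14.5% higher in WT MPP3 than in WT HSCs, and 7.22% and 9.07% among TTPΔARE libraries. The genotype log2 fold changes of Tgfb1 were 0.04 (SE 0.08) in Y-HSCs, -0.10 (SE 0.07) in M-HSCs and 0.01 (SE 0.11) in MPP3. Age gave 0.10 (SE 0.06, adjusted p = 0.274) in WT and -0.03 (SE 0.08, adjusted p = 0.906) in TTPΔARE HSCs.

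Tgfbr1 (chr4:47353222-47414931), the type I receptor, was highest in WT MPP3 cells. Its CPM were 51.0, 46.7, 47.1 and 49.8 in Y-WT HSCs and 78.4, 81.6, 77.4 and 95.1 in Y-WT MPP3, which did not overlap and differed by 0.74 on the log2 scale (SE 0.12, adjusted p = 0.00179). In Y-TTPΔARE MPP3 the CPM were 66.7, 57.9, 63.4 and 45.6, below every Y-WT MPP3 library, with a genotype log2 fold change of -0.53 (SE 0.19). There the rise over Y-TTPΔARE HSCs was 0.20 (SE 0.17, adjusted p = 0.524) and did not pass the test. It passed with all 24 libraries in the fit (adjusted p = 0.0398) and without MPP3 replicate 4 (adjusted p = 0.0430), the library lowest in Tgfbr1. In HSCs Tgfbr1 rose with age in both genotypes, from between 46.7 and 51.0 CPM in Y-WT to between 57.6 and 67.2 in M-WT (0.35, SE 0.07, adjusted p = 0.00556), and from between 44.1 and 51.8 to between 57.9 and 64.7 in TTPΔARE (0.33, SE 0.09, adjusted p = 0.0397). Neither pair of ranges overlapped. With the receptor-gene background as a covariate the adjusted p in WT was 0.0901, and in TTPΔARE the call was lost on leaving out any 1 of the 3 M-TTPΔARE libraries or Y-TTPΔARE replicate 3 or 4 (adjusted p between 0.0785 and 0.177), by the likelihood ratio test (0.111) and with all 24 libraries in the fit (0.0921).

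Tgfbr2 (chr9:116084293-116175360), the type II receptor that binds the ligand, varied little. Its CPM lay between 82.3 and 106 in all 16 HSC libraries, between 112 and 129 in Y-WT MPP3 and between 72.1 and 97.4 in Y-TTPΔARE MPP3. The genotype groups were apart in MPP3 cells only, with a log2 fold change of -0.44 (SE 0.16) against -0.13 (SE 0.08) in Y-HSCs and -0.06 (SE 0.07) in M-HSCs. The higher level of WT MPP3 cells over WT HSCs (0.28, SE 0.09) narrowly missed the threshold (adjusted p = 0.0606) although the groups did not overlap. It passed with all 24 libraries in the fit (adjusted p = 0.0102) and without Y-WT HSC replicate 1 or 4 or Y-WT MPP3 replicate 4 (adjusted p between 0.0163 and 0.0358). No other contrast of cell type or age passed for Tgfbr2 (adjusted p between 0.549 and 0.773).

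Tgfbr3 (chr5:107106570-107289629), the co-receptor betaglycan, stood higher in HSCs than in MPP3 cells, and its lowest level was in TTPΔARE MPP3. CPM were 53.5, 42.8, 43.8 and 47.1 in Y-WT MPP3 and 17.3, 19.8, 27.4 and 19.1 in Y-TTPΔARE MPP3. The groups were far apart, with a log2 fold change of -1.19 (SE 0.18), a 2.28-fold lower level. Within HSCs the genotypes overlapped, with a log2 fold change of -0.03 (SE 0.09) in young and -0.19 (SE 0.11) in middle-aged mice. Mean CPM ran from 157 ± 21.9 (SD, n = 5) in M-WT through 143 ± 15.4 (n = 3) in M-TTPΔARE, 117 ± 6.98 (n = 4) in Y-TTPΔARE and 115 ± 12.6 (n = 4) in Y-WT HSCs to 46.8 ± 4.84 (n = 4) and 20.9 ± 4.45 (n = 4) in the MPP3 groups. In this order M-WT and M-TTPΔARE overlapped, as did the young HSC groups, and all other neighbours were apart. MPP3 cells thus stood 1.34 log2 units below HSCs in WT (SE 0.11) and 2.57 below in TTPΔARE (SE 0.17), contrasts that share the MPP3 libraries used to choose the gene and carry no p. With age Tgfbr3 rose from between 105 and 134 CPM in Y-WT to between 136 and 191 in M-WT HSCs (log2 fold change 0.44, SE 0.11, adjusted p = 0.0206). That call was lost with the receptor-gene covariate (adjusted p = 0.164) and without Y-WT replicate 2 (0.0622), and in TTPΔARE HSCs the change of 0.28 (SE 0.09) missed the threshold (adjusted p = 0.0684) with no overlap, but passed by DESeq2 (adjusted p = 0.0222) and without the filter on low counts (0.0483). An overlap with exons of another annotated gene, Gm43422, on the same strand could take up some of the reads of Tgfbr3.

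Eng (chr2:32646595-32682669), endoglin, had the highest level per length of the 10 members (46.5 CPM per kb of exon on average over 24 libraries) and, like Tgfbr3, was higher in HSCs. CPM were 211, 159, 161 and 242 in Y-WT HSCs and 117, 113, 104 and 106 in Y-WT MPP3. The groups were apart by -0.85 on the log2 scale (SE 0.15, adjusted p = 0.00341). In TTPΔARE libraries CPM were 195, 206, 192 and 189 in HSCs against 94.2, 104, 82.6 and 86.5 in MPP3, a log2 fold change of -1.18 (SE 0.13, adjusted p = 2.16e-04). Both calls held in every alternative fit, but the WT change lay under the alternative limit of a fold change over 2. Y-WT HSC replicates 1 and 4, high in Eng, are the libraries high in the endothelial genes Plvap and Stab2. Endothelial cells also express Eng, and their part was not tested. Leaving out both libraries moved the genotype log2 fold change in Y-HSCs from -0.03 (SE 0.12) to 0.31 (SE 0.09). In M-HSCs it was 0.06 (SE 0.06), and in MPP3 cells, where the genotypes did not overlap, -0.29 (SE 0.13). Eng rose with age in TTPΔARE HSCs to 292, 280 and 272 CPM (0.52, SE 0.07, adjusted p = 0.00103), above every young library. In WT it rose to between 241 and 283 CPM (0.43, SE 0.12, adjusted p = 0.0287), where the ages overlapped through Y-WT replicate 4, and leaving out 1 of 5 single libraries (M-WT replicates 1, 2 or 5, Y-WT replicates 2 or 3) or adding the receptor-gene covariate ended this call (adjusted p from 0.0599 to 0.320). An exon of Fpgs on the opposite strand overlaps Eng, and whether reads were counted by strand is not stated.

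Smad3 (chr9:63646767-63757994), the receptor-activated SMAD among the members, increased with age in both genotypes. Its CPM were 68.5, 64.5, 71.4 and 79.9 in Y-WT HSCs and 116, 111, 98.3, 119 and 119 in M-WT HSCs. All M-WT libraries lay above all Y-WT libraries, and the log2 fold change of 0.66 (SE 0.09, adjusted p = 8.57e-04) passed in every alternative fit. It lay under the alternative limit of a fold change over 2. In TTPΔARE the CPM were 89.1, 91.6, 87.4 and 82.5 in young and 120, 125 and 106 in middle-aged HSCs, again apart (0.41, SE 0.08, adjusted p = 0.00744). This call was lost without M-TTPΔARE replicate 1 (adjusted p = 0.0544) or 2 (0.0619). Of all genes tested with age, 3.69% were called lower and 8.38% higher in WT HSCs, and 3.24% and 4.98% in TTPΔARE HSCs. The genotype log2 fold change was 0.26 (SE 0.08) in Y-HSCs, where every Y-TTPΔARE library lay above every Y-WT library, 0.00 (SE 0.08) in M-HSCs and -0.24 (SE 0.16) in MPP3. Between cell types Smad3 did not differ detectably in WT (0.01, SE 0.10, adjusted p = 0.942). It was lower in MPP3 cells among TTPΔARE libraries (-0.56, SE 0.15, adjusted p = 0.0279), a call that was lost without Y-TTPΔARE HSC replicate 2, 3 or 4 or with the receptor-gene covariate (adjusted p between 0.0552 and 0.0883).

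The inhibitory SMADs were among the members with the lowest levels and moved in opposite directions with age in WT HSCs. Smad6 (chr9:63953076-64022059) fell from 14.3, 11.4, 10.1 and 15.7 CPM in Y-WT to 7.95, 9.85, 7.55, 8.29 and 9.48 in M-WT HSCs. The groups were apart (log2 fold change -0.59, SE 0.14, adjusted p = 0.0145), and Y-WT replicates 1 and 4, which carried the endothelial genes, were the highest. Without both, the change was -0.34 (SE 0.14, adjusted p = 0.0862). In TTPΔARE HSCs the change with age was -0.09 (SE 0.13, adjusted p = 0.825). M-TTPΔARE HSCs had 12.7, 13.5 and 12.4 CPM, above every M-WT library, with a genotype log2 fold change of 0.53 (SE 0.12) against 0.04 (SE 0.15) in Y-HSCs and 0.03 (SE 0.17) in MPP3. Smad7 rose with age in WT from 15.0, 17.2, 15.7 and 15.9 CPM to 21.1, 18.2, 22.9, 20.3 and 21.2, without overlap (0.37, SE 0.09, adjusted p = 0.0138). The adjusted p was 0.0978 with the receptor-gene covariate, 0.119 with all 24 libraries in the fit and 0.0509 without both endothelial-high libraries. In TTPΔARE HSCs the change was 0.35 (SE 0.17, adjusted p = 0.278), and it passed only without Y-TTPΔARE replicate 2 (adjusted p = 0.0356), whose 21.5 CPM lay within the middle-aged range. Genotype log2 fold changes of Smad7 lay between -0.13 and -0.06 with overlap in each contrast. Neither gene passed a cell type contrast in the unblocked fits, with adjusted p between 0.0873 and 0.262.

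Skil (chr3:31095058-31122577), the co-repressor SnoN, had the lowest level per length (2.51 CPM per kb of exon) and spread widely within groups. M-WT HSCs ranged from 23.5 to 41.3 CPM and M-TTPΔARE HSCs had 19.9, 24.7 and 22.6, so the groups overlapped at a log2 fold change of -0.52 (SE 0.17). With the receptor-gene covariate that value was -0.19 (SE 0.16). In Y-HSCs and MPP3 cells it was -0.09 (SE 0.19) and -0.11 (SE 0.29). No cell type or age contrast passed the test for Skil (adjusted p between 0.250 and 0.862). Without Y-TTPΔARE MPP3 replicate 2, at 30.8 CPM the highest of its group, the cell type contrast in TTPΔARE passed (log2 fold change -0.61, SE 0.16, adjusted p = 0.0283).

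**Figure D2:**
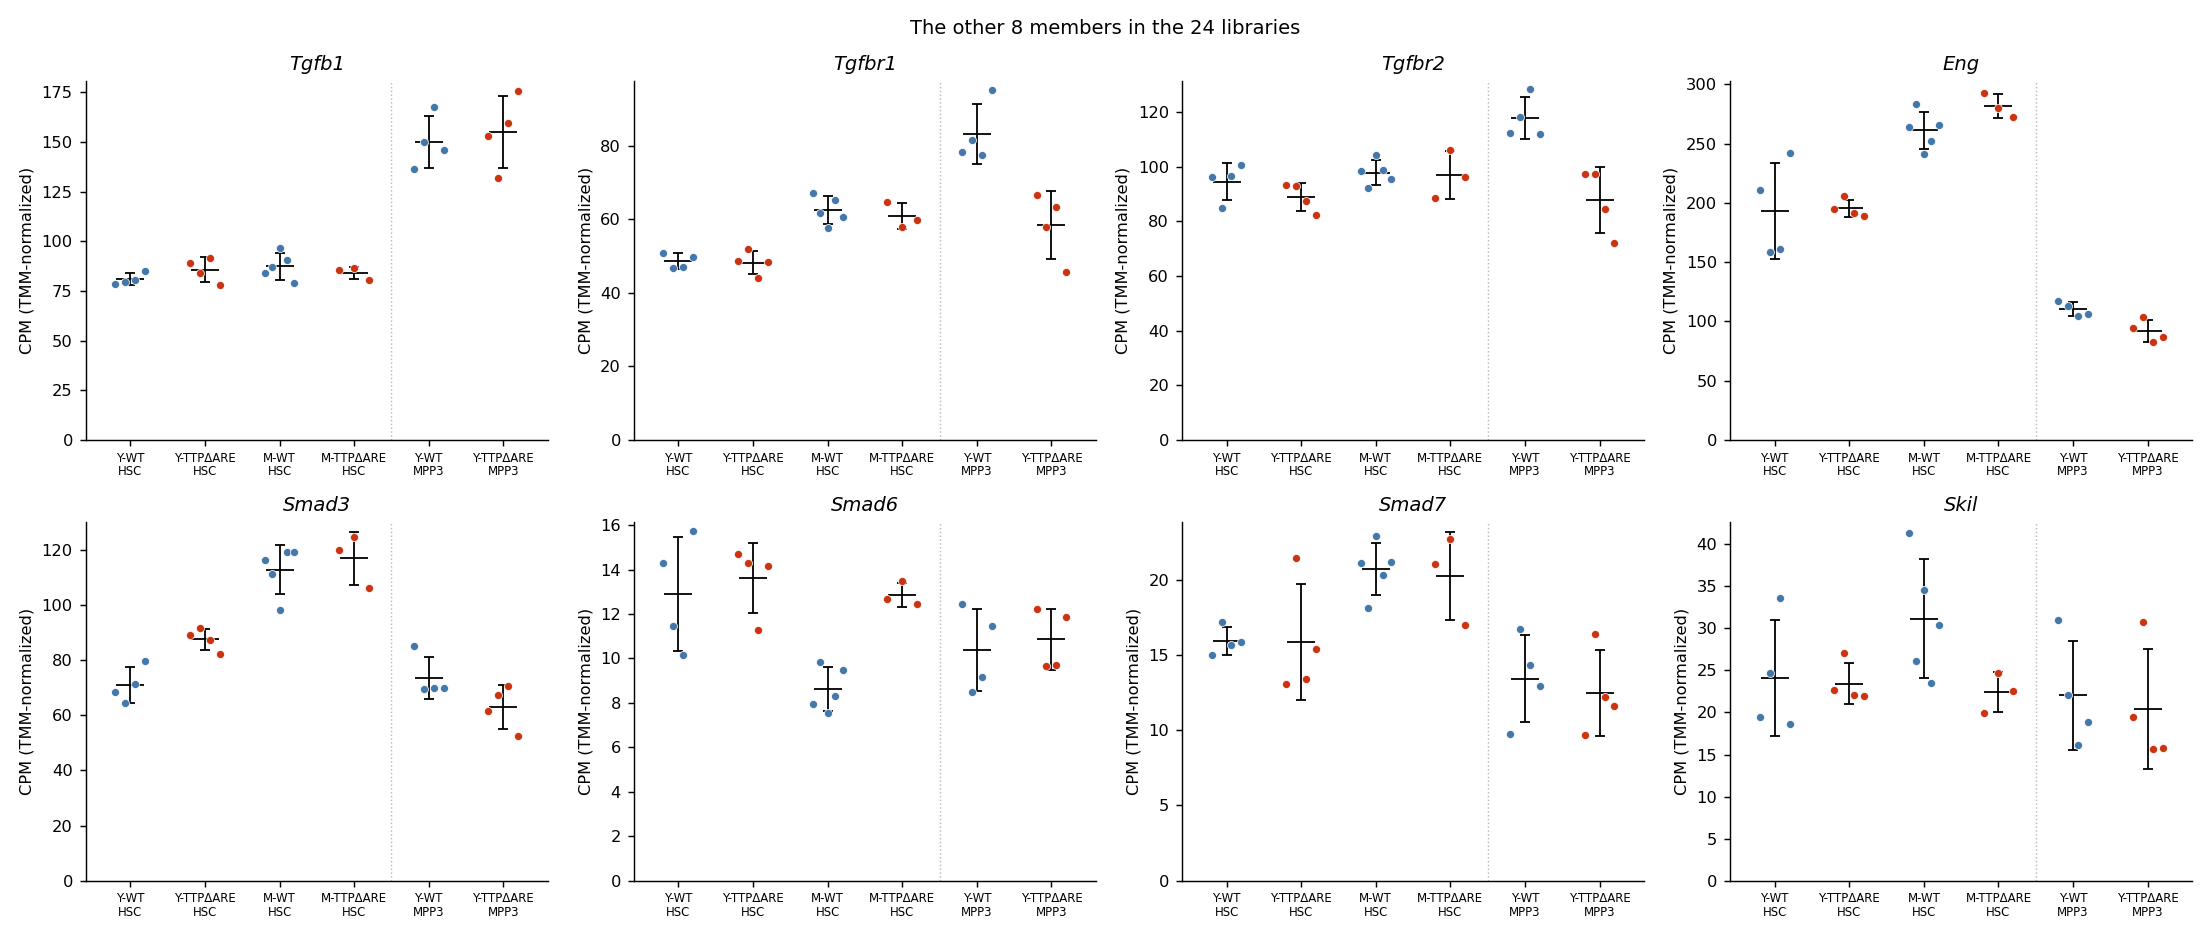
Level (CPM, TMM-normalized, linear axes from 0) of the other 8 members in each of the 24 libraries, drawn as for Tgfbi and Tgfbr3. Tgfb1 is higher in both MPP3 groups, Eng is lower there, Smad3 is higher in both middle-aged HSC groups, and the groups of Skil overlap throughout.

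**Figure D3:**
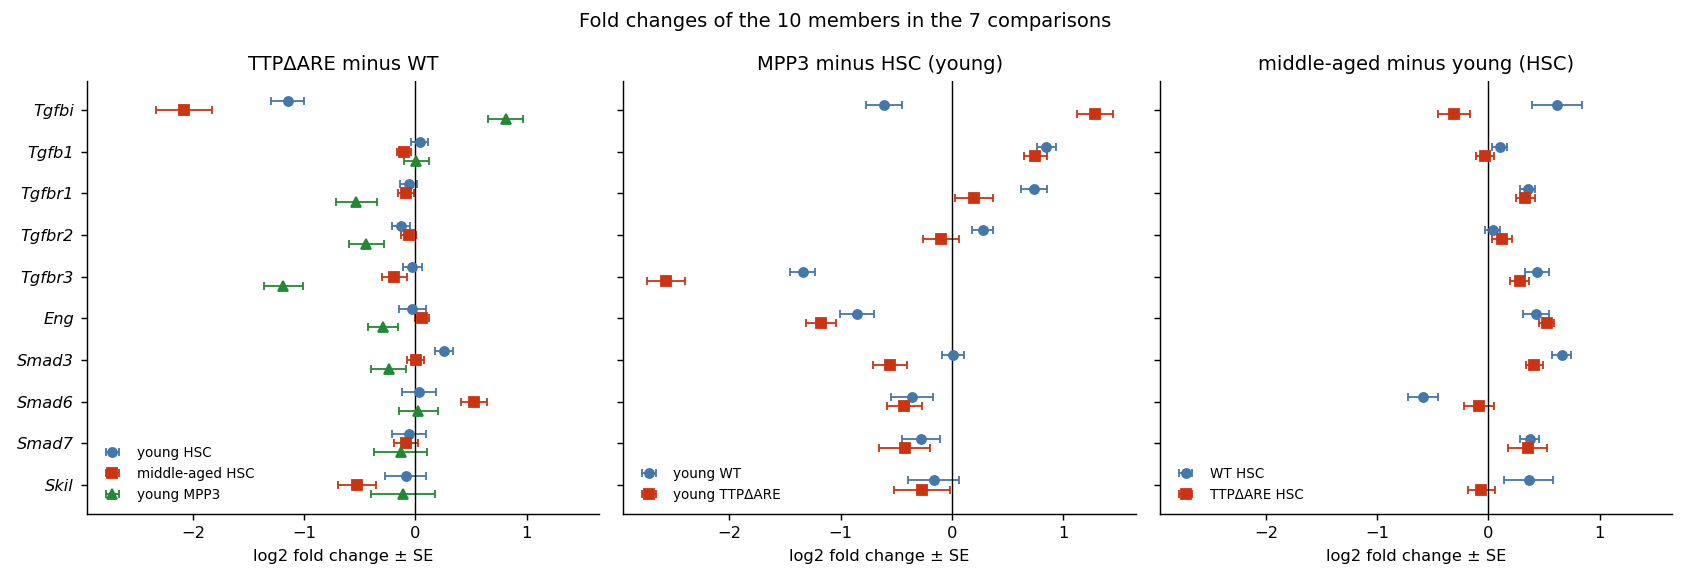
Log2 fold change ± SE of each member (rows) between TTPΔARE and WT, between MPP3 cells and HSCs, and between middle-aged and young HSCs; colours and symbols give the cells or the genotype in which each contrast was made. Tgfbi lies at -1.15 and -2.08 in HSCs and at 0.81 in MPP3 for the genotype, and Tgfbr3 and Eng lie left of 0 for MPP3 against HSCs.

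By count, 8 members were tested between cell types. In WT, Tgfb1 and Tgfbr1 rose, Eng fell and 5 did not pass (all genes 7.69% lower, 14.5% higher), and in TTPΔARE Tgfb1 rose, Eng and Smad3 fell and 5 did not pass (7.22% and 9.07%). Of 9 tested with age, 5 rose in WT HSCs (Tgfbr1, Tgfbr3, Eng, Smad3 and Smad7), Smad6 fell and 3 did not pass (all genes 3.69% lower, 8.38% higher), and 3 rose in TTPΔARE HSCs (Tgfbr1, Eng and Smad3) and 6 did not pass (3.24% and 4.98%). In WT, the calls of Tgfbr1, Tgfbr3, Eng and Smad7 were lost with the receptor-gene covariate. Those of Smad6 and Smad7 were lost without both endothelial-high libraries. The HSC markers rose with age as well, 5 of 7 being called higher in each genotype, and their part in the rise of members was not tested. Whether the change with age differed between the genotypes was not tested for any member.

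To place the members in their pathway, 106 other genes of TGF-β, activin and BMP signalling and their targets were examined with the same fits, and 8 of them passed the filter on low counts in no comparison. In Y-HSCs, none of the 96 tested was called by edgeR's quasi-likelihood test, against 0.0123% of all genes lower and 0.0123% higher. The median log2 fold change was -0.10 for the list and -0.07 over all genes. DESeq2 called 6 of the 96 and edgeR's likelihood ratio test 5. Over all genes, 596 lower and 468 higher had an unadjusted p under 0.05 within the limits on fold change and level. In M-HSCs, 3 of 92 were called, 2 lower (2.17%, against 0.71% of all genes) and 1 higher (1.09%, against 0.7%). Itgb3, an integrin subunit, was lower in M-TTPΔARE HSCs, with 106, 111 and 68.2 CPM against 198, 225, 223, 180 and 210 in M-WT (log2 fold change -1.18, SE 0.14, adjusted p = 0.00276). Mmp14, a membrane metalloproteinase that can release TGF-β from its latent complex, was also lower (-0.71, SE 0.10, adjusted p = 0.00690), and Cdkn1c, which encodes the cell cycle inhibitor p57, was higher (0.48, SE 0.08, adjusted p = 0.0163). The call of Cdkn1c was lost without M-TTPΔARE replicate 2 or 3 (adjusted p = 0.0715 and 0.0980). None of these groups overlapped, but no gene of the list was called in M-HSCs with all 24 libraries in the fit. Mmp14 was not called in Y-HSCs, although its CPM lay between 18.7 and 23.3 in Y-TTPΔARE and between 24.7 and 40.8 in Y-WT. With edgeR at the same limits, the paper reports many more changed transcripts in young HSCs than were called here. Mmp14, Mmp2, Bmpr1a and Id2 of the list are among those it reports. The source of this difference was not tested.

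In MPP3 cells 4 of 87 genes were called, all higher in TTPΔARE (4.60%, against 1.58% of all genes). Calls over all genes also lay mostly on that side, with 0.137% lower. The median log2 fold change was 0.09 for the list and 0.04 over all genes. Id2, an inhibitor of basic helix-loop-helix factors that dendritic and lymphoid cells need, rose from 20.8, 10.9, 19.0 and 21.4 to 251, 148, 232 and 501 CPM (log2 fold change 3.89, SE 0.34, adjusted p = 3.32e-04). Its highest library was replicate 4, also the highest in type 1 dendritic cell markers, and its lowest was replicate 2, the lowest in them. The part of such cells was not tested. Acvrl1, a type I receptor best known from endothelium, rose from 1.95 ± 0.593 to 13.1 ± 1.68 CPM (SD, n = 4 each; 2.71, SE 0.27, adjusted p = 6.46e-04). Itgb2, the leukocyte integrin β2, rose from 61.9 ± 12.3 to 129 ± 13.9 CPM (n = 4 each; 1.03, SE 0.13, adjusted p = 0.00235). These 3 were called whichever single library was left out. Cdkn1a, encoding p21, rose by 1.06 (SE 0.22, adjusted p = 0.0417) and was called in 1 of 8 such fits, the one without Y-TTPΔARE replicate 4 (adjusted p up to 0.155 in the others).

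Between WT MPP3 cells and HSCs, 45 of 96 genes were called. Those lower in MPP3 numbered 30 (31.2%, against 7.69% of all genes) and those higher 15 (15.6%, against 14.5%), with a median log2 fold change of -0.64 against -0.16 over all genes. Of 14 ligands tested 6 were lower, among them Bmp4, Inhba and Tgfb3, none was higher and 8 did not pass. Receptors had 5 of 10 lower and 1 higher (Acvr1b), while Smad2 (0.31, SE 0.08, adjusted p = 0.0185) and Smad5 (0.38, SE 0.09, adjusted p = 0.0120) of 4 other SMADs were higher. The largest falls with separate groups were those of Ccn2, a matricellular target (-6.88, SE 1.14), Stab2, a scavenger receptor of sinusoidal endothelium (-5.49, SE 0.69), Lrrc32, a carrier of latent TGF-β1 (-5.30, SE 1.00), and Dab2, an adaptor (-4.31, SE 0.52), with adjusted p between 3.91e-04 and 0.00432. Means in Y-WT MPP3 were only 0.126 CPM for Ccn2 and 0.448 for Lrrc32, so the size of their falls is uncertain. In Y-WT HSCs Ccn2 had 26.0 and 22.9 CPM in replicates 1 and 4 but 2.07 and 3.11 in replicates 2 and 3. Stab2 is itself on the endothelial marker list. Of 7 tested genes of that marker list, 6 were called lower in MPP3 and 1, Adgrl4, higher (mean 848 CPM in Y-WT HSCs, 1450 in Y-WT MPP3). The part of endothelial cells was not tested. With both endothelial-high Y-WT HSC libraries left out, 13 TGF-β genes were called lower and 13 higher. Cdkn1c (-2.33, SE 0.29, adjusted p = 4.64e-04) and Itgb3 (-1.90, SE 0.20, adjusted p = 1.99e-04) were lower too. Integrin β5 (Itgb5, 2.23, SE 0.27), integrin αM (Itgam, 2.03, SE 0.33), the protease Mmp2 (0.99, SE 0.17) and Cdkn1a (0.76, SE 0.22) rose the most, with adjusted p between 3.93e-04 and 0.0320. Nrros, which anchors latent TGF-β1 on myeloid cells, rose from 212 ± 6.41 to 301 ± 29.1 CPM (n = 4 each; 0.46, SE 0.09, adjusted p = 0.00505). The regulators Strap, Tgif1, Map3k7 and Rnf111 rose by between 0.37 and 0.52 (adjusted p between 0.00321 and 0.0259), and Tsc22d1 (-0.50) and Hipk2 (-0.40) were lower (adjusted p = 0.0123 and 0.0447). Of 8 fits that each left out 1 library, Hipk2 lost its call in 7, Cdkn1a in 4, Smad2 in 3, Rnf111 in 2 and Tsc22d1 in 1 (adjusted p between 0.0532 and 0.152).

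In TTPΔARE libraries 32 of 94 genes were called between the cell types, 22 lower (23.4%, against 7.22% of all genes) and 10 higher (10.6%, against 9.07%), with a median log2 fold change of -0.25 against -0.05 over all genes. Ccn2 (-4.12, SE 0.58), the ligand Bmp4 (-3.42, SE 0.70), Lrrc32 (-3.18, SE 0.78) and the protease Mmp9 (-3.03, SE 0.82) fell the most (adjusted p between 7.45e-04 and 0.0272). Their means in Y-TTPΔARE MPP3 lay between 0.617 and 0.973 CPM, so the size of these falls is uncertain. Cdkn1c fell from 69.5 ± 2.86 to 11.8 ± 1.88 CPM (n = 4 each; -2.66, SE 0.14, adjusted p = 2.63e-06), and Itgb3 (-2.35), Furin, a convertase that processes the TGF-β1 precursor (-0.63), Col4a1 (-0.77) and Tsc22d1 (-0.60) were lower as well (adjusted p between 0.00583 and 0.0409). Acvrl1 (2.76, SE 0.32), periostin (Postn, a relative of TGFBI; 2.12, SE 0.37), Itgam (2.05, SE 0.25) and Itgb5 (1.75, SE 0.17) led the rise (adjusted p between 8.48e-05 and 0.00296). Id2 rose by 1.68 (SE 0.33, adjusted p = 0.00559), Nrros by 0.45 (SE 0.11, adjusted p = 0.0199) and Strap by 0.41 (SE 0.10, adjusted p = 0.0145). With single libraries left out, Tsc22d1, whose groups overlapped, lost its call in 7 of 8 fits, Strap in 5, Nrros and Lrrc32 in 4, Mmp9 and Col4a1 in 3 and Postn in 1. All 9 type 1 dendritic cell markers were also called higher in this contrast.

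With age, 28 of 96 genes were called in WT HSCs, 14 lower (14.6%, against 3.69% of all genes) and 14 higher (14.6%, against 8.38%), with a median log2 fold change of -0.02 against -0.04 over all genes. Among those lower with separate groups, the largest falls were those of Stab2 (-3.19, SE 0.49), Dab2 (-3.19, SE 0.42), Itga1 (-3.13, SE 0.34) and the inhibitor Id3 (-2.93, SE 0.45), with adjusted p between 3.29e-04 and 0.00201. Of 7 endothelial markers tested with age in WT, Cdh5, Plvap, Flt4 and Stab2 were called lower and Tie1 and Adgrl4 higher, and Plvap lay between 41.7 and 210 CPM in Y-WT and between 5.64 and 14.3 in M-WT. The part of endothelial cells was not tested. Those higher were led by Itgb3, from 53.2 ± 13.6 CPM (n = 4) to 207 ± 18.6 (n = 5; 1.95, SE 0.17, adjusted p = 9.03e-05), the BMP receptor Bmpr1a, from between 5.45 and 7.85 to between 15.6 and 28.6 CPM (1.85, SE 0.19, adjusted p = 2.81e-04), Ltbp4 (1.46, SE 0.20, adjusted p = 0.00117) and the ligand Tgfb3 (1.15, SE 0.17, adjusted p = 0.00162). Ltbp3, which like Ltbp4 encodes a latent TGF-β binding protein, rose from 107 ± 8.71 (n = 4) to 157 ± 8.42 CPM (n = 5; 0.54, SE 0.07, adjusted p = 0.00104). Mmp14 (0.61), Bmp1 (0.42), Smad5 (0.35) and Tsc22d1 (0.35) rose less, with adjusted p between 0.00281 and 0.0134. Each of these 13 genes stayed called whichever of the 9 libraries was left out. With the receptor-gene covariate 12 genes of the list were called lower and 6 higher.

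In TTPΔARE HSCs, 18 of 96 genes were called with age, 10 lower (10.4%, against 3.24% of all genes) and 8 higher (8.33%, against 4.98%), with a median log2 fold change of 0.01 against -0.01 over all genes. Bmpr1a rose from 2.72, 4.95, 4.42 and 5.69 to 31.5, 30.3 and 22.2 CPM (2.66, SE 0.21, adjusted p = 5.17e-05), Bmp4 by 2.82-fold (SE 0.11 on the log2 scale, adjusted p = 4.29e-05), Ltbp4 by 1.31 (SE 0.16, adjusted p = 6.55e-04), Cdkn1c by 0.63 (SE 0.08, adjusted p = 8.12e-04) and Ltbp3 by 0.57 (SE 0.07, adjusted p = 7.02e-04). Ccn2 fell by 4.98 (SE 0.43), Stab2 by 2.99 (SE 0.29) and Id3 by 2.81 (SE 0.50) on the log2 scale, with adjusted p between 9.68e-05 and 0.00543. In M-TTPΔARE HSCs the mean was 0.434 CPM for Ccn2 and 0.860 for Id3. Mmp9 (-2.74), Id2 (-0.98) and Itgb2 (-0.77) were also lower (adjusted p between 0.0262 and 0.0447), calls that were lost in 3 or 4 of the 7 fits that left out a library (adjusted p between 0.0516 and 0.156). With all 24 libraries in one fit 10 genes were called. Of 8 endothelial markers tested with age in TTPΔARE HSCs, Cdh5, Plvap, Flt4 and Stab2 were called lower and Tie1 and Adgrl4 higher. Mean Plvap was 36.0 CPM in Y-TTPΔARE and 2.85 in M-TTPΔARE HSCs. The part of endothelial cells was not tested here either.

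**Figure D4:**
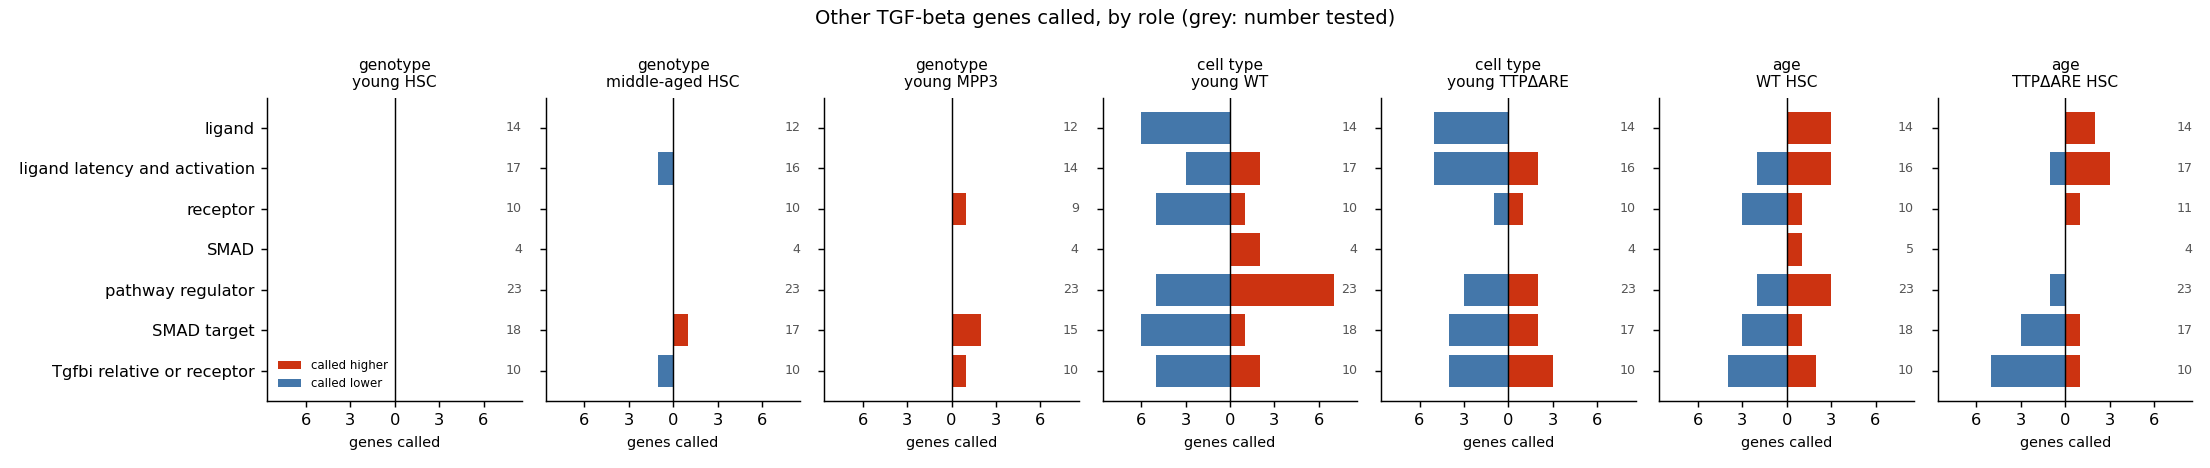
Number of other TGF-β genes called lower (blue, left) and higher (red, right) in each of the 7 comparisons, by the role of the gene, with the number tested in grey. Genotype panels hold at most 4 called genes, and ligands extend only to the left for MPP3 against HSCs and only to the right with age.

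Over the 24 libraries, the genes whose log2 CPM went most nearly with Tgfbi among 13260 others were Fgr (Pearson r = 0.776), Cebpd (0.768), Zfp948 (0.691), Gpr4 (0.680) and Arf2 (0.672). Fgr had 9.67 CPM in M-WT, 4.63 in M-TTPΔARE, 4.31 in Y-WT MPP3 and 10.4 in Y-TTPΔARE MPP3 on average, the same order as Tgfbi within each of those pairs. From Y-WT to Y-TTPΔARE MPP3, mean Zfp948 (8.37 to 10.5 CPM) and Gpr4 (5.09 to 6.41) also rose. Cebpd (18.5 to 18.0) and Arf2 (56.2 to 50.3) did not. The nearest member was Skil (r = 0.204). For Tgfbr3 the nearest were Tie1 (0.980), Podxl (0.979), Csgalnact1 (0.975), Rab27b (0.974) and Mmrn1 (0.973), and Eng, the other co-receptor, had r = 0.934. Tie1 is on the endothelial marker list. It was called higher with age in HSCs of both genotypes, where Cdh5, Plvap, Flt4 and Stab2 of that list were called lower. Tie1 was also called lower in TTPΔARE than in WT MPP3 cells, the only gene of that list called there. These coefficients are descriptions, because the libraries share cell type, age set and depth.

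On the scale of level per length (mean CPM per kb of exon over 24 libraries), Eng was followed by Tgfb1 (21.3), Smad3 (15.8), Tgfbr3 (15.4), Tgfbr2 (11.9), Tgfbi (9.42), Tgfbr1 (9.24), Smad7 (3.65), Smad6 (3.55) and Skil (2.51). Of the members, all 10 passed the filter on low counts in all 7 comparisons.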

How the data were processed

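Per the paper's methods and the submitters' processing notes, adapter trimming by the authors used Trim Galore! and Cutadapt, alignment to mm10 used STAR with a GENCODE M22 index, and genes were counted by featureCounts. How strand and multimapping reads were handled is not given in the sources used here. The kit named in the paper (SMART-seq v4 with Nextera XT) differs from that in the labels (SMARTer Standard mRNA-seq kit v2). The deposited values are raw counts of 55376 gene symbols per library, without normalization. The tests ran on those counts in edgeR 4.0.16 under R 4.3.3 (filterByExpr, minimum count 10 and total 15; TMM; quasi-likelihood F test; Benjamini-Hochberg adjustment over all genes tested), only the groups compared entering each fit. The SE is the log2 fold change divided by the square root of F. Calls followed the limits of the study's methods, which are a fold change over 1.2, an average logCPM over 1.5 and an adjusted p under 0.05. The members and gene lists were chosen with earlier results of these data known. Genes outside the members were named by a rule, which took up to 4 called genes a direction with the largest change and no overlap, called genes over 50 CPM, and the 5 nearest genes to Tgfbi and Tgfbr3 by Pearson r of log2 CPM (prior count 2; mean CPM over 3); Bmp4, Inhba, Tgfb3 and Acvr1b among WT cell type calls and further calls named as examples were picked after their values were seen. Gene positions, exon lengths and 3′ UTRs come from the GENCODE M21 annotation (GRCm38), 1 release before the one used for counting. Same-numbered Y-TTPΔARE HSC and MPP3 libraries deviated together (correlation between 0.214 and 0.298) and were taken as paired, judged from the data only. In no other contrast was every library nearest to its own number. For cell type in WT the pairs numbered 2, 3 and 4 were (between 0.173 and 0.200), and pair 1 was not (0.0717). The p-values come from fits without this pairing unless the replicate block is named. The fits were tested on simulated data. Libraries of a group differed beyond counting noise (chi-square per degree of freedom at least 18.2). Alternatives were DESeq2 1.42.0, the likelihood ratio test, RLE scaling, no filter, other limits, a replicate block, all 24 libraries in one fit and each library left out. The receptor-gene covariate and leaving out both endothelial-high libraries were chosen after seeing the data.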

Additional observations from a re-analysis of the deposited data

Results flagged for a closer look

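The genotype log2 fold change of Tgfbi had opposite signs in the cell types, at -1.15 in Y-HSCs and -2.08 in M-HSCs against 0.81 in MPP3 cells, and every library of each group lay on one side of the other genotype. The difference between these effects was not tested.

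In 50 sets of a member and a group of 4 or 5 libraries, 4 had a library whose distance to its nearest neighbour took up most of the group's range, and chance gives about 1 in 20. Tgfbi stood at 97.6 CPM in M-WT HSC replicate 3, with the other 4 between 45.1 and 52.9. Smad3 stood at 85.2 CPM in Y-WT MPP3 replicate 1 against 69.7 to 70.0 in the others. Smad6 stood at 11.3 CPM in Y-TTPΔARE HSC replicate 3 against 14.2 to 14.7, and Skil at 27.0 CPM in Y-TTPΔARE HSC replicate 2 against 22.0 to 22.7.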

How the results depend on the processing

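The number of other TGF-β genes called in Y-HSCs was 0 in the reported fit and under RLE scaling, without a filter or logCPM limit and at a fold change over 2, 6 by DESeq2, 5 by the likelihood ratio test, 1 with the receptor-gene covariate and 1 without both endothelial-high libraries. In M-HSCs (3 called) it was 5 by DESeq2, 5 by the likelihood ratio test, 5 without a filter on low counts, 0 with all 24 libraries in the fit and 1 at a fold change over 2. In MPP3 (4) it was 7 by DESeq2 and 10 with all 24 libraries. For cell type in WT (45) it was 26 without both endothelial-high libraries and 24 at a fold change over 2, for age in WT (28) 18 with the receptor-gene covariate and 16 at a fold change over 2, and for age in TTPΔARE (18) 10 with all 24 libraries and 10 at a fold change over 2. Leaving out single libraries gave 0 to 0, 2 to 4, 3 to 5, 35 to 45, 23 to 38, 22 to 32 and 13 to 18 calls in the order Y-HSC, M-HSC, MPP3, cell type in WT and TTPΔARE, age in WT and TTPΔARE. With the replicate number as a block the counts were 0, 3, 4, 42, 34, 22 and 15. For the contrast taken as paired, cell type in TTPΔARE (32 called), the block changed no call of a member. Elsewhere a pairing was not established. For cell type in WT, 3 of 4 pairs correlated at 0.173 or above, each best with its own number, and the other at 0.0717. There the block added a call of Smad6 (adjusted p = 0.0476). It ended the calls of Eng and Smad7 with age in WT and of Tgfbr1 and Smad3 with age in TTPΔARE (adjusted p between 0.0633 and 0.165). Of the 5 genes nearest to Tgfbi by Pearson's r, 3 were among the nearest 5 by Spearman's rho, and 0 of those nearest to Tgfbr3. No called member changed sign under any alternative run. Of members without a call, Smad3 between cell types in WT was 0.01 as reported, -0.0399 with DESeq2, -0.0399 with RLE scaling, -0.023 without a filter and -0.0157 with the receptor-gene covariate. With single libraries left out it ran from -0.071 to 0.072, Skil from -0.38 to 0.032, Tgfbr2 in TTPΔARE from -0.22 to 0.046, and with age Tgfbr2 in WT from -0.013 to 0.079, Tgfb1 in TTPΔARE from -0.089 to 0.010 and Skil in TTPΔARE from -0.12 to 0.040. The cause of these changes was not tested. Of 34 tested member values, 14 kept their direction and side of the threshold in every alternative fit, a count that leaves out the other limits.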
